A study of Mus musculus with 22 samples.

Results

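A set of 10 genes of bone morphogenetic protein (BMP) and transforming growth factor beta (TGF-beta) signalling were followed in whole mouse brain: the ligands Bmp4, Bmp7 and Tgfb2, the receptors Bmpr2, Bmpr1a and Acvr2a, the signal carrier Smad1, the target genes Id1 and Id3, and the kinase gene Bmp2k. They are 10 of the 19312 gene symbols on the arrays and were read by 18 of the 41174 probes, each described separately: 14 carried the member's name, 1 carried it in another letter case (Id3), 2 were found through their accession (Acvr2a, listed under an older symbol) and 1 through a synonym (A_51_P518698 of Bmpr2, listed as 2610024H22Rik). The last 3 lie outside a strict match of names. Bmp2k and Bmpr2 were chosen on their knockout over control values at embryonic day 15, and the set was drawn up around them with the results of that comparison known. The values of that comparison are therefore described for all 10 genes and not tested.

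Mice labelled knockout were compared with control mice. The E15 titles name the gene, Agtr2, which encodes a receptor for angiotensin II and lies on the X chromosome. The P1 titles and sources read knockout without a gene, and the P1 animals are taken to be Agtr2 knockouts too. Postnatal day 1 (P1) had 4 knockout brains, on 8 arrays, and embryonic day 15 (E15) had 8 knockout and 6 control brains, on 14 arrays. The labels do not number the P1 controls: the control RNA on the arrays of 1 P1 knockout brain was counted as 1 control animal, so that 4 P1 controls are assumed. Each array held 1 knockout and 1 control RNA in opposite dyes, with a swap of the dyes for every replicate except E15 replicates 3 and 4. The labels give neither strain, sex nor the kind of Agtr2 allele, and they do not say what the control animals carry. Because 6 control animals served 8 knockout animals at E15, the replicates 1, 4 and 7 and the replicates 2, 3 and 8 are linked through control animals they share.

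The 1 probe of Agtr2 (A_51_P437978) ran from 66.1 to 82.4 signal units in P1 knockout animals, against 67.2 to 75.4 in P1 controls, and from 74.7 to 136 in E15 knockout animals, against 70.1 to 568 in E15 controls. Whether it lies in the removed part of the gene is not given, so it does not check the labels. The share of spots well above background was 71.3% to 89.5% over the P1 arrays and 74.9% to 89.3% over the E15 arrays. Arrays of the same knockout animal with the dyes swapped correlated, after turning to knockout over control, between -0.19 and 0.28 at P1 (4 pairs) and between -0.20 and 0.67 at E15 (6 pairs, of which 2, those of replicates 1 and 2, had a different control animal on each array). Arrays of 1 dye orientation correlated between -0.39 and 0.46. The labels state the dyes, so directions are given as labelled. Neuronal marker genes were well measured (7 of 8 at both ages, all but Rbfox3). In 2 E15 animals, knockout 8 and control 1, genes of the meninges and of skeletal muscle stood far above the other brains, as given beside the results they touch. E15 control 2, on arrays of replicates 2 and 3, was next for the meninges genes.

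BMPs and TGF-betas are secreted ligands that bring together type I and type II serine/threonine kinase receptors at the cell surface. The activated type I receptor phosphorylates receptor Smads, which enter the nucleus with Smad4 and change the transcription of targets such as the Id genes, whose products block basic helix-loop-helix factors. In the developing brain the pathway patterns the dorsal midline and acts on the choice between neurons and glia, and the meninges are a rich source of its ligands. Bmp2k, the BMP-2-inducible kinase, belongs to a family with Aak1 and Gak, kinases of clathrin-dependent traffic, and is not itself a receptor or Smad.

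Levels below are normalized signal units that include an added offset of 50, so that a level near 50 means almost no signal and changes of dim probes are compressed. Changes are log2 of knockout over control or of P1 over E15. Each replicate is 1 knockout animal against its control, except that E15 replicate 1 is the mean of arrays against controls 6 and 1 and E15 replicate 2 of arrays against controls 3 and 2. Nothing in the labels says how the animals relate, so p-values measure the spread between these samples. Probe positions are those in the files, whose genome build is not stated, and so no exon or UTR was assigned.

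At E15, Bmp2k was the member with the highest knockout over control value, and it rested on 1 of its 3 probes. A_51_P337944 (chr5:96108888-96108947) gave 0.35, 0.60, 0.63, 0.74, 0.41, 0.53, 0.35 and 0.82 in knockout replicates 1 to 8. All 8 lay above 0, with a mean of 0.56 ± 0.18 (SD, n = 8), or 1.47-fold. Among all 34005 probes with 8 values, 0.762% lay above 0 in every replicate. These values chose the gene and are given as a description.

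The other probes of Bmp2k did not share this shift. A_52_P532349 (chr5:96105673-96105732), 3155 bases before the first probe, ran from -0.09 to 0.09 with a mean of 0.00 ± 0.06 (SD, n = 8). A_52_P392517 (chr5:96086562-96086621), a further 19051 bases before it, ran from -0.12 to 0.15 with a mean of 0.06 ± 0.09 (SD, n = 8), which was 0.24 with an offset of 0 and 0.27 with the scanner's processed signals. A_51_P337944 lay above each of the other probes in 8 of 8 replicates, by 0.29 to 0.84. It was alike in both dyes, above 0 on 8 of 8 E15 arrays with the knockout RNA in Cy5 (mean 0.55) and on 6 of 6 with it in Cy3 (mean 0.52). It was 0.58 within replicates 1 to 4, scanned on the last E15 scan day, and 0.53 within replicates 5 to 8, scanned earlier. Of the 18 member probes, 13 had means of opposite sign in these sets of replicates.

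All 3 Bmp2k probes were dim. The signal of A_51_P337944 over its local background had a median of 75.5 units in E15 knockout channels (range 23.6 to 143) and of 37.2 in E15 control channels (14.4 to 88.0). It was well above background in 14 of 14 knockout and 13 of 14 control channels. At such signals the offset compresses a ratio: the fitted mean of 0.55 became 1.30 with an offset of 0 and 1.48 with the scanner's processed signals, in which the replicates ran from 0.72 to 2.05. A_52_P392517 was well above background in 8 of 14 channels of each kind, so its values near 0 say little in either direction. A_52_P532349 was well above background in all 14 channels of each kind.

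At P1 the animals were others and the comparison could be tested. A_51_P337944 gave -0.18, 0.40, 0.24 and 0.15 in knockout replicates 1 to 4, with 3 of 4 above 0, a mean of 0.15 ± 0.24 (SD, SE 0.10, n = 4) and a limma adjusted p = 0.655. The lowest value came from knockout animal 1, at 79.1 units against 118 to 127 in the other P1 knockout animals. A_52_P392517 gave 0.32, 0.15, 0.05 and 0.08, all above 0 (mean 0.15 ± 0.12 SD, n = 4, 1 array of replicate 2 left out as an outlier spot, limma adjusted p = 0.506). Among all 33411 probes with 4 values, 10.8% lay above 0 in every P1 replicate. With the scanner's processed signals, replicate 4 of A_52_P392517 was at -0.12. A_52_P532349 gave -0.20, -0.08, -0.01 and 0.05 (mean -0.06 ± 0.11 SD, n = 4, limma adjusted p = 0.755). The sign of the first probe was that of the third in 2 of 4 replicates. Whether the shift of A_51_P337944 differed between the ages was not tested.

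**Figure D1:**
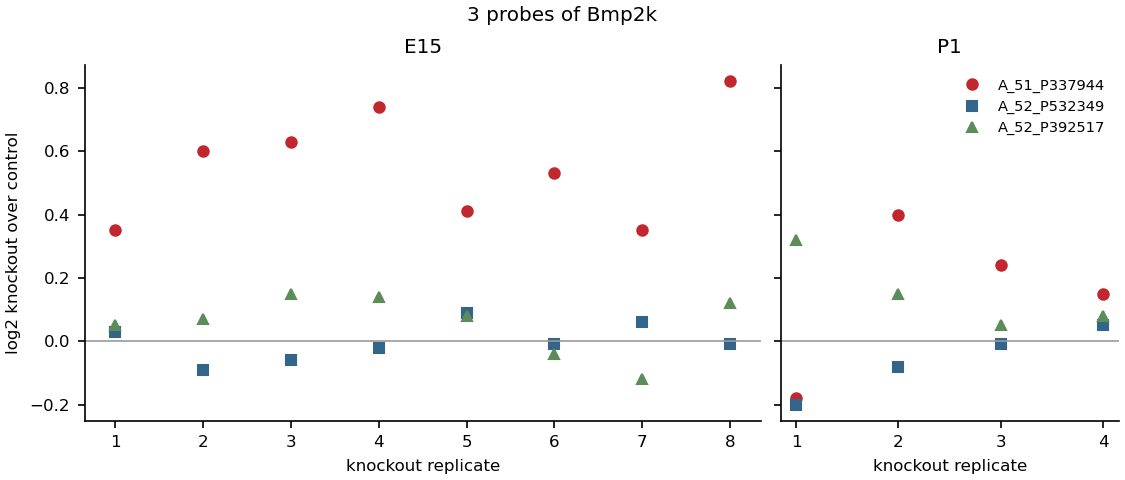
Log2 knockout over control of the 3 Bmp2k probes in each knockout replicate at E15 (left, 8 replicates) and P1 (right, 4 replicates). At E15 the red circles of A_51_P337944 lie between 0.35 and 0.82 while the blue squares and green triangles of the other probes lie between -0.12 and 0.15, and at P1 the 3 probes overlap.

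No probe of any gene passed an adjusted p of 0.05 in either knockout comparison by limma: 0 of 34175 at E15 (0% called) and 0 of 34920 at P1 (0% called). At an unadjusted p under 0.05 there were 2203 probes at E15 (6.45%) and 3427 at P1 (9.81%). With the scanner's processed signals the adjusted counts were 1 at E15 and 0 at P1. The 1 probe was A_51_P337944 of Bmp2k, whose E15 values chose its gene, so this count is no test of it. All 18 member probes passed the filter on signal at both ages. At P1 their adjusted p ran from 0.506 to 0.987, and 1 of 18, a Bmp2k probe, was under 0.05 unadjusted. The P1 means ran from -0.23 to 0.18 with 12 above and 6 below 0 and a median of 0.06, beside a median of 0.00 over all probes tested. At E15 the means ran from -0.33 to 0.56 with 11 above and 7 below 0 and a median of 0.03, beside 0.00 over all probes.

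**Figure D2:**
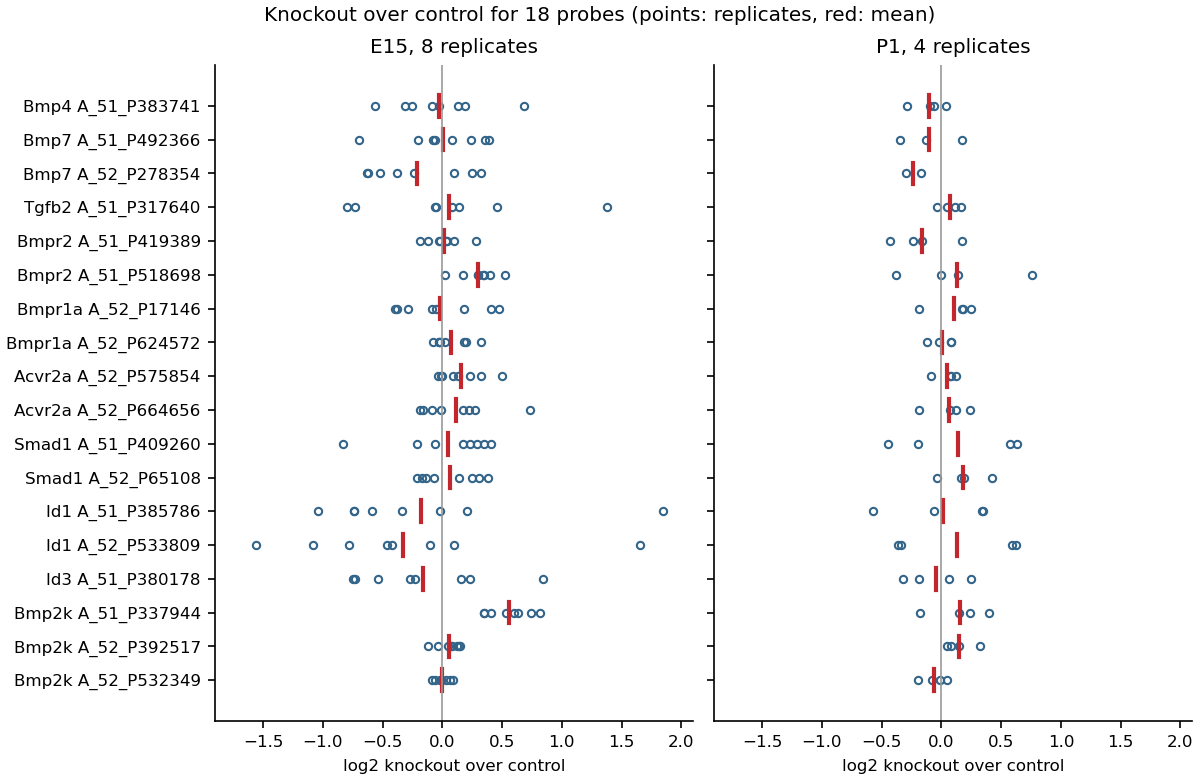
Log2 knockout over control for each of the 18 probes at E15 (left, 8 replicates) and P1 (right, 4 replicates or fewer where outlier spots were left out), with replicates as open circles and their mean as a red bar. Id1, Id3 and Tgfb2 spread widely at E15, from -1.56 to 1.85, and 2 probes (Bmp2k A_51_P337944 and Bmpr2 A_51_P518698) have all 8 E15 values above 0.

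Among the ligands, none had E15 values on 1 side of 0. Bmp4, a ligand of the dorsal midline, was read by A_51_P383741 (chr14:41464008-41464067) and ran from -0.56 in replicate 1 to 0.68 in replicate 8, with a median of -0.06 and a mean of -0.03 ± 0.37 (SD, n = 8). At P1 it gave 0.04, -0.06, -0.10 and -0.29 (mean -0.10 ± 0.14 SD, n = 4, limma adjusted p = 0.642). The P1 values straddled 0 with 3 of 4 below it, and the dye orientations differed. The P1 arrays ran from -0.38 to -0.08 with the knockout RNA in Cy3. With it in Cy5 they ran from -0.19 to 0.15, with 3 of 4 above 0.

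Tgfb2, 1 of the 3 TGF-beta ligands, was read by A_51_P317640 (chr1:186121770-186121829) and ran at E15 from -0.80 in replicate 4 to 1.38 in replicate 8 (median 0.02, mean 0.05 ± 0.69 SD, n = 8). At P1 it gave 0.11, -0.04, 0.16 and 0.05, a far narrower set (mean 0.07 ± 0.09 SD, n = 4, limma adjusted p = 0.682). Each of these values is the mean of arrays of opposite sign. The P1 arrays ran from 0.22 to 0.37 with the knockout RNA in Cy3 and from -0.31 to -0.06 with it in Cy5.

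Bmp7, a BMP made by the meninges and choroid plexus among other tissues, had neighbouring probes 19 bases apart on chromosome 2. A_51_P492366 had an E15 mean of 0.00 ± 0.36 (SD, n = 8; -0.70 to 0.39) and A_52_P278354 one of -0.22 ± 0.39 (SD, n = 8; -0.63 to 0.32). They had the same sign in 7 of 8 replicates. At P1 the scanner software marked 4 and 6 of the 8 arrays of these probes as outlier spots, leaving 3 and 2 replicates: 0.17, -0.13 and -0.35 for A_51_P492366 (limma adjusted p = 0.808) and -0.30 and -0.17 for A_52_P278354 (limma adjusted p = 0.509). With those spots kept, the P1 means changed sign to 0.06 and 0.11, so no direction can be given for Bmp7 at P1.

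Among the receptors, Bmpr2, the BMP type II receptor, had disagreeing probes. A_51_P518698 (chr1:60180959-60181018), at 106 to 1264 units over background in E15 knockout channels, gave 0.34, 0.40, 0.30, 0.52, 0.30, 0.35, 0.02 and 0.17 in E15 replicates 1 to 8. All 8 lay above 0, with a mean of 0.30 ± 0.15 (SD, n = 8), 1.23-fold. The value of replicate 1 is the mean of unlike arrays, -0.51 against control 6 and 1.19 against control 1. A_51_P419389 (chr1:60173973-60174032), 6926 bases away and at 12.2 to 79.5 units over background in the same channels, ran from -0.19 to 0.28 with a mean of 0.01 ± 0.14 (SD, n = 8). The signs were the same in 4 of 8 replicates. The E15 values are among those known when the gene was chosen.

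At P1 the disagreement was larger. A_51_P518698 gave 0.00, 0.14, -0.38 and 0.76 (mean 0.13 ± 0.48 SD, n = 4, limma adjusted p = 0.853) and A_51_P419389 gave -0.24, -0.43, 0.17 and -0.16 (mean -0.17 ± 0.25 SD, n = 4, limma adjusted p = 0.639, 2 of 8 arrays left out as outlier spots). The probes had opposite signs in 4 of 4 replicates. With outlier spots kept, the second probe's P1 mean was 0.01.

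Bmpr1a, a BMP type I receptor, and Acvr2a, a type II receptor for activins and some BMPs, had E15 means between -0.02 and 0.15. The Bmpr1a probe A_52_P17146 had an E15 mean of -0.02 ± 0.34 (SD, n = 8; -0.40 to 0.47) and A_52_P624572, which was well above background in 10 of 14 channels of each kind, one of 0.07 ± 0.14 (SD, n = 8). At P1 A_52_P17146 gave 0.25, 0.17, -0.19 and 0.18 (limma adjusted p = 0.728) and A_52_P624572 0.08, -0.12, -0.02 and 0.08 (limma adjusted p = 0.985). Acvr2a was the receptor whose probes were closest: A_52_P575854 and A_52_P664656, 1643 bases apart, differed by a median of 0.09 at E15 and 0.08 at P1. Their E15 means were 0.15 ± 0.19 and 0.12 ± 0.30 (SD, n = 8 each), highest in replicate 4 at 0.50 and 0.73. With the scanner's processed signals the E15 value of A_52_P575854 was 0.41. Their P1 means were 0.05 ± 0.09 and 0.06 ± 0.18 (SD, n = 4 each; limma adjusted p = 0.790 and 0.844).

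Smad1, the Smad that BMP receptors phosphorylate, was read by probes 343 bases apart whose replicates did not follow each other. A_51_P409260 had an E15 mean of 0.05 ± 0.41 (SD, n = 8; -0.83 in replicate 3 to 0.41 in replicate 1), and A_52_P65108 one of 0.06 ± 0.23 (SD, n = 8; -0.21 in replicate 7 to 0.38 in replicate 2). They had the same sign in 3 of 8 E15 replicates and 1 of 4 P1 replicates. At P1 A_51_P409260 gave 0.57, -0.20, -0.45 and 0.63 (limma adjusted p = 0.867) and A_52_P65108 0.42, 0.16, 0.19 and -0.04 (mean 0.18 ± 0.19 SD, n = 4, limma adjusted p = 0.534).

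Id1 and Id3, direct targets of BMP signalling through Smads, varied more between E15 replicates than any other member apart from Tgfb2. The Id1 probe A_51_P385786 gave -0.74, -0.34, -0.74, -1.04, -0.02, -0.59, 0.21 and 1.85 in E15 replicates 1 to 8 (mean -0.18 ± 0.91 SD), and A_52_P533809, which shares 50 of its 60 positions with it, ran from -1.56 to 1.65 with the same sign in 8 of 8 replicates. Id3 (A_51_P380178, chromosome 4) gave -0.23, -0.27, -0.73, -0.54, 0.16, -0.75, 0.23 and 0.84 (mean -0.16 ± 0.55 SD, n = 8, 1 array of replicate 2 left out as an outlier spot). Replicate 8 was the highest for both Id genes, for Tgfb2 and for Bmp4. Without replicate 8 the Id1 means were -0.46 and -0.61. Within replicates 1 to 4 the means were -0.71 and -0.88 for Id1, -0.44 for Id3 and -0.41 for Tgfb2. Within replicates 5 to 8, scanned on earlier days, they were 0.36 and 0.22 for Id1, 0.12 for Id3 and 0.52 for Tgfb2. The latter means hold replicate 8, at 1.85 and 1.65 for Id1, 0.84 for Id3 and 1.38 for Tgfb2. Replicates 5 to 7 ran from -0.59 to 0.21 and from -0.78 to 0.10 for Id1. They ran from -0.75 to 0.23 for Id3 and from 0.08 to 0.46 for Tgfb2. The opposite signs of the Id means therefore do not set the scan days apart.

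Marker genes of tissue around the brain moved in the same replicates. The median ratio of the meninges and fibroblast list (14 of 14 genes measured at E15, among them Col1a1, Col3a1, Lum and Dcn) ran from -1.02 in replicate 4 to 1.57 in replicate 8, and that of the skeletal muscle list (12 of 12) from -3.21 to 2.66 in the same replicates. The summed level of the meninges list was 4038 to 49785 in E15 knockout animals, highest in animal 8, against 4289 to 45990 in E15 controls, highest in animal 1, and the muscle list summed to 2563 to 29297 in E15 knockout animals, against 2251 to 64890 in E15 controls. Control 1 was hybridized with replicates 1 and 4. Control 2, hybridized with replicates 2 and 3, had a meninges sum of 20704, against 4289 to 8719 in controls 3 to 6. At P1 the meninges list summed to 3017 to 4227 in knockout animals and 3213 to 4197 in controls (13 of 14 genes, Fmod below the filter), and the muscle list to 1936 to 2143 in knockout animals and 1958 to 2203 in controls (10 of 12, Myl1 and Tnnc2 below the filter).

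The levels of Id1 and Tgfb2 set knockout 8 and control 1 apart, and those of Id3 and Bmp4 did so less or not at all. Id1 (A_51_P385786) was at 1219 units in knockout 8 against 309 to 567 in the other E15 knockout animals, and at 819 units in control 1 against 348 to 577 in the other E15 controls. Tgfb2 was at 390 units in knockout 8 and 372 in control 1, with the other E15 knockout animals at 124 to 222 and the other E15 controls at 113 to 179. Id3 was at 334 units in knockout 8 against 129 to 307 in the other E15 knockout animals, and at 257 in control 1, inside the 186 to 330 of the other E15 controls. Bmp4 was at 167 units in knockout 8, next to 162 in knockout 6, and at 162 in control 1, next to 149 in control 5. The receptor probe A_52_P17146 of Bmpr1a was also highest in both animals. It was at 401 units in knockout 8 against 228 to 340 in the other E15 knockout animals. In control 1 it was at 384 units, against 228 to 300 in the other E15 controls. The part of surrounding tissue in the E15 values was not tested. In RNA of whole brain, fewer cells of a type and less RNA per cell cannot be told apart.

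**Figure D3:**
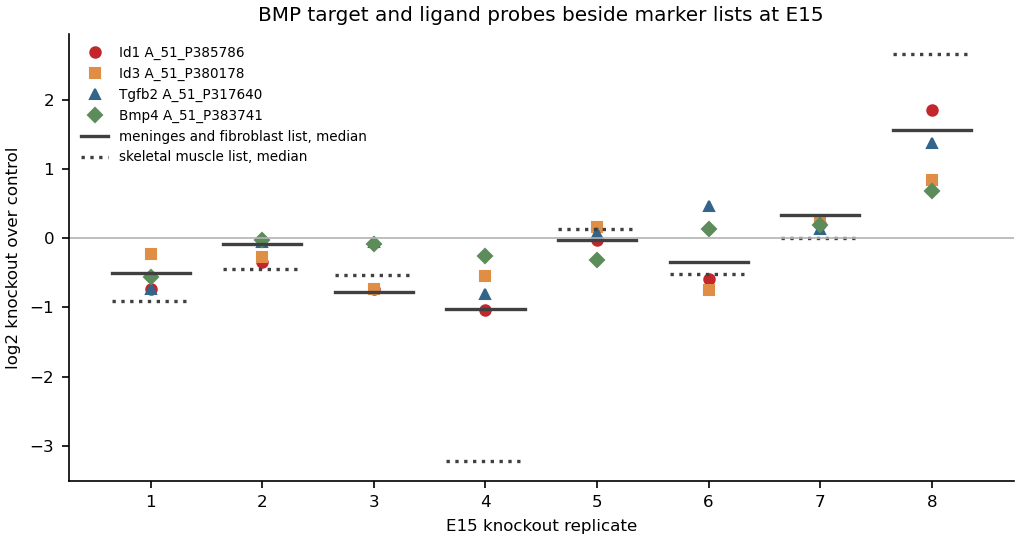
Log2 knockout over control at E15 by knockout replicate for Id1, Id3, Tgfb2 and Bmp4 (symbols), with the median over the genes of the meninges and fibroblast list (solid bars) and the skeletal muscle list (dotted bars). Replicate 8 is highest for all 4 genes and both lists, and replicate 4 is lowest for both lists, for Tgfb2 (-0.80) and for this Id1 probe (-1.04).

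At P1, where the meninges and muscle lists differed little between animals, Id1 had no shared direction. A_51_P385786 gave -0.06, 0.34, -0.57 and 0.35 (mean 0.02 ± 0.43 SD, n = 4, limma adjusted p = 0.987), A_52_P533809 gave -0.36, 0.62, -0.34 and 0.59 (limma adjusted p = 0.878), and Id3 gave -0.19, 0.25, -0.32 and 0.06 (mean -0.05 ± 0.25 SD, n = 4, limma adjusted p = 0.901). All 3 probes were above 0 in replicates 2 and 4 and below it in replicates 1 and 3, but some of these signs are uncertain. The -0.06 of A_51_P385786 in replicate 1 is the mean of arrays at -0.71 and 0.59. The 0.06 of Id3 in replicate 4 is that of arrays at 0.38 and -0.27, and was -0.01 with the scanner's processed signals. The P1 medians of the neural progenitor markers (-0.08, 0.12, -0.16 and 0.12) and astrocyte markers (-0.36, 0.01, -0.24 and 0.02) had the same signs by replicate. The astrocyte medians of replicates 2 and 4 lay next to 0. The medians of the neuron, endothelium, choroid plexus, meninges and muscle lists did not have these signs. The part of cell makeup in the P1 values was not tested.

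Id3, Tgfb2 and Bmp4 were each highest in E15 replicate 8, while in replicate 6 Id3 was at -0.75, Tgfb2 at 0.46 and Bmp4 at 0.13. The 250 bases before their starts were searched for CAGAC, the core of a Smad-binding element (GTCTG on the other strand). The sequences are those of the RefSeq promoter table of build GRCm38.p6, in which 8 of the 10 members had a window. Capitals mark each match on either strand.
Id3, chr4:136143572-136143821, plus strand: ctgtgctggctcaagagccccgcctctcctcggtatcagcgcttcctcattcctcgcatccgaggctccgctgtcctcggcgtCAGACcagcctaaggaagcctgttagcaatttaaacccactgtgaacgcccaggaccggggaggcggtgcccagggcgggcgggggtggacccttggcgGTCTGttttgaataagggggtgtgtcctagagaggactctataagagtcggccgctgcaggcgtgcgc
Tgfb2, chr1:186705990-186706239, minus strand: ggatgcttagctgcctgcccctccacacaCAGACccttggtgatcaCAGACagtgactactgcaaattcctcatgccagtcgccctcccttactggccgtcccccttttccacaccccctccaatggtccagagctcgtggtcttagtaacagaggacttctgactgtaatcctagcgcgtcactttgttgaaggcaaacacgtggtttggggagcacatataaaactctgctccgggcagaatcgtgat
Bmp4, chr14:46390670-46390919, minus strand: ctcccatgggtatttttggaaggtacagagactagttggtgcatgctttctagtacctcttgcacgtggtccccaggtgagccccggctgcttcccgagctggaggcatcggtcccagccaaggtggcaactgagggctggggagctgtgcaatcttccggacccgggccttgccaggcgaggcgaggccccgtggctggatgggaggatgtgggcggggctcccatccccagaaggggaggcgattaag

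Id3 and Tgfb2 each held 2 matches and Bmp4 held 0, and 42.2% of all 32851 windows of that length hold at least 1. Of the other member windows, that of Acvr2a held 1 match and those of Bmpr2, Bmpr1a, Smad1 and Bmp2k held 0. The GC-rich motif GGCGCC, which reads the same on both strands, was absent before Id3, Tgfb2 and Bmp4. It was present 2 times before Bmp2k and 1 time each before Bmpr2 and Bmpr1a, beside 9.59% of all windows. Those windows are themselves rich in GC, at 83.2% for Bmp2k, 64.0% for Bmpr2 and 78.8% for Bmpr1a, beside a median of 52.4% over all windows. A match is a stretch of letters and no evidence of binding.

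Between the ages, the level of several members differed. In control animals at P1 against E15, 12800 of 35873 probes passed an adjusted p of 0.05 (35.7% called; 14% higher and 21.7% lower at P1). Of 13 member probes tested, 4 were lower (30.8%) and 2 higher (15.4%). In knockout animals 9686 probes passed (27.0% called; 11.7% higher, 15.3% lower), and of the 13 member probes 1 was lower and 0 higher. In knockout animals 0 of 18 probes had every P1 animal above every E15 animal, beside 8.13% of all probes, and 1 had every P1 animal below, beside 9.38%. In controls these were 2 above, beside 11.0%, and 5 below, beside 16.5%. The knockout call was also a call in controls, 16 of all 18 probes changed with the same sign in both genotypes, and none was called in opposite directions. A difference between the genotypes was not tested here. The control p-values rest on the assumed 4 P1 control animals, and the E15 channels are those of the comparison known when the genes were chosen, so the calls are no independent support for the choice. Each age had its own arrays, scan days and scanner software version, so age and array batch cannot be told apart, and the median over all probes lay at -0.07 in both genotypes.

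Bmp4 was lower at P1 in both genotypes. In knockout animals it was at 92.8, 87.1, 92.3 and 91.1 units at P1, against 108 to 167 (median 121) at E15, and every P1 animal lay below every E15 animal. The change was -0.52 (SE 0.13, n = 4 and 8, limma adjusted p = 0.0113). In controls it was at 90.4, 90.7, 98.6 and 111 units at P1, against 113 to 162 (median 132) at E15, again without overlap (-0.45, SE 0.11, n = 4 and 6, limma adjusted p = 0.00912). Without control 1 the change in controls was -0.39 (limma adjusted p = 0.0108), and without knockout 8 that in knockout animals was -0.47 (limma adjusted p = 0.0121).

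Id1 was lower at P1 in controls. A_51_P385786 was at 333, 245, 332 and 333 units at P1, against 348 to 819 (median 546) at E15, with no overlap (-0.78, SE 0.20, limma adjusted p = 0.0125), and A_52_P533809 at 335, 266, 311 and 335, against 367 to 888 (median 627) at E15 (-0.95, SE 0.20, limma adjusted p = 0.00434). Without control 1 the changes were -0.65 (limma adjusted p = 0.0100) and -0.83 (limma adjusted p = 0.00388). In knockout animals the ages overlapped: A_51_P385786 was at 320, 310, 224 and 425 units at P1, against 309 to 1219 at E15 (-0.60, SE 0.32, limma adjusted p = 0.179), and A_52_P533809 changed by -0.53 (SE 0.34, limma adjusted p = 0.277). Id3 did not pass in either genotype (0.02 in knockout animals, limma adjusted p = 0.952, and -0.13 in controls, limma adjusted p = 0.464).

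Marker lists also differed between the ages. In knockout animals the meninges and fibroblast list summed to 3017 to 4227 at P1 against 4008 to 49646 at E15 over the probes of this comparison, which overlap, and 3 of its 20 probes were called lower and 1 higher, a share lower near the 15.3% of all probes. In controls the sums were 3213 to 4197 at P1 and 4234 to 45925 at E15, with 8 of 20 probes called lower, beside 21.7% of all probes, and 1 higher. Of the neuron list 5 of 16 probes were called higher in knockout animals and 10 of 16 in controls, and of the astrocyte list 3 of 13 and 8 of 13, with 1 lower in each genotype, beside 11.7% of all probes called higher in knockout animals and 14% in controls. The part of cell makeup in the changes of Bmp4 and Id1 was not tested.

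The Smad1 probes differed. A_52_P65108 was at 144, 121, 128 and 114 units in P1 knockout animals, against 117 to 218 (median 169) in E15 knockout animals, which overlap (-0.40, SE 0.15, limma adjusted p = 0.0652). In controls it was at 107, 108, 113 and 117 units at P1, all below the 127 to 205 (median 162) of E15, and fell by 0.57 on the log2 scale (SE 0.12, limma adjusted p = 0.00495). A_51_P409260 had differences of 0.31 in knockout animals (SE 0.15, limma adjusted p = 0.159) and 0.23 in controls (SE 0.20, limma adjusted p = 0.381), neither past the threshold. In controls it was at 713, 1175, 1209 and 659 units at P1, against 567 to 904 at E15. The values 713 and 659 lay inside the E15 range, and 1175 and 1209 lay above it.

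Bmp7 was higher at P1 in controls on both probes, with few P1 values. A_51_P492366 was at 267, 216 and 325 units in 3 P1 controls, against 158 to 225 in 6 E15 controls (0.44, SE 0.14, limma adjusted p = 0.0345), and A_52_P278354 at 340 and 280 units in 2 P1 controls, against 201 to 283 (0.46, SE 0.14, limma adjusted p = 0.0356). Both calls are fragile: for A_51_P492366, the limma adjusted p was 0.149 without P1 control 4 (change 0.29), 0.0869 without P1 control 1, 0.0555 without E15 control 3 and 0.0612 without E15 control 5. For A_52_P278354 the adjusted p was 0.0513 to 0.0637 without E15 controls 2, 3, 5 or 6 in turn, and 0.0660 with an offset of 0. In knockout animals the changes were 0.36 (SE 0.26, limma adjusted p = 0.341) and 0.48 (SE 0.30, limma adjusted p = 0.264), the second becoming 1.20 (limma adjusted p = 0.00180) with outlier spots kept. There E15 knockout 4, at 95.9 units of A_51_P492366, lay below all others (174 to 280).

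**Figure D4:**
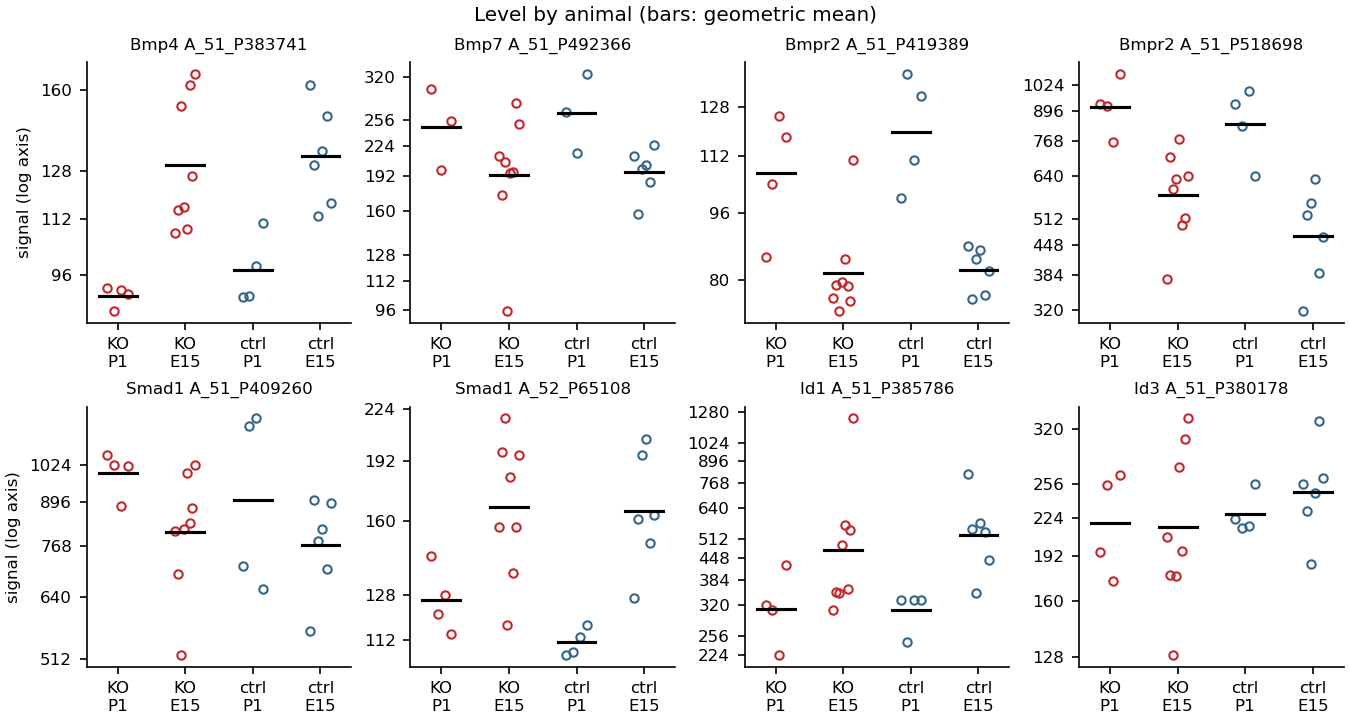
Normalized signal (log axis) of 8 probes in single animals, with knockout animals (KO, red) at P1 and E15 left of control animals (ctrl, blue) at P1 and E15, and black bars at the geometric mean. Bmp4 lies lower at P1 in both genotypes without overlap, and Smad1 A_52_P65108 lies lower at P1 without overlap in controls only, while the ages overlap for Smad1 A_51_P409260.

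Bmp2k and Bmpr2 are the genes whose E15 ratios prompted the choice, and since these ratios hold the E15 channels, their levels are described without a test. Both Bmpr2 probes were higher at P1 in both genotypes. A_51_P518698 was at 931, 918, 762 and 1085 units in P1 knockout animals, against 376 to 774 (median 616) at E15, and at 929, 830, 992 and 639 in P1 controls, all above the 319 to 631 (median 494) of E15. A_51_P419389 was at 85.2, 104, 125 and 118 units in P1 knockout animals, against 73.7 to 111 (median 78.9) at E15, and at 100, 140, 111 and 132 in P1 controls, all above the 76.1 to 87.9 (median 83.3) of E15. The changes were 0.66 and 0.39 in knockout animals and 0.83 and 0.54 in controls, so the probes that disagreed between knockout and control had the same direction between the ages.

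The Bmp2k probes again differed. A_51_P337944 was at 79.1, 118, 127 and 124 units in P1 knockout animals, against 92.9 to 152 (median 110) in E15 knockout animals, and at 89.5, 89.5, 108 and 111 in P1 controls, against 63.8 to 114 (median 73.2) in E15 controls. Its change was -0.05 in knockout animals (SE 0.17) and 0.33 in controls (SE 0.15), with overlap in both. A_52_P392517 was higher at P1 by 0.24 and 0.11 and A_52_P532349 changed by -0.22 and -0.17, in knockout animals and in controls, on probes whose levels lay between 60.3 and 88.3 units in all animals. In control channels A_52_P532349 was well above background in 5 of 8 at P1 and 14 of 14 at E15.

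The remaining members did not pass the threshold between the ages. Bmpr1a changed by -0.21 and -0.19 in knockout animals (limma adjusted p = 0.256 and 0.190) and by -0.31 and -0.13 in controls (limma adjusted p = 0.118 and 0.152). Acvr2a changed by -0.27 and -0.07 in knockout animals (limma adjusted p = 0.0876 and 0.697) and by -0.22 and -0.11 in controls (limma adjusted p = 0.133 and 0.500). Without E15 control 1, A_52_P575854 of Acvr2a passed in controls (-0.28, limma adjusted p = 0.0370), and without E15 knockout 1 it passed in knockout animals (-0.34, limma adjusted p = 0.0112). Tgfb2 changed by -0.08 in knockout animals (limma adjusted p = 0.846) and by -0.05 in controls (limma adjusted p = 0.898), and leaving out E15 knockout 8 or E15 control 1 turned these to 0.08 and 0.18.

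**Figure D5:**
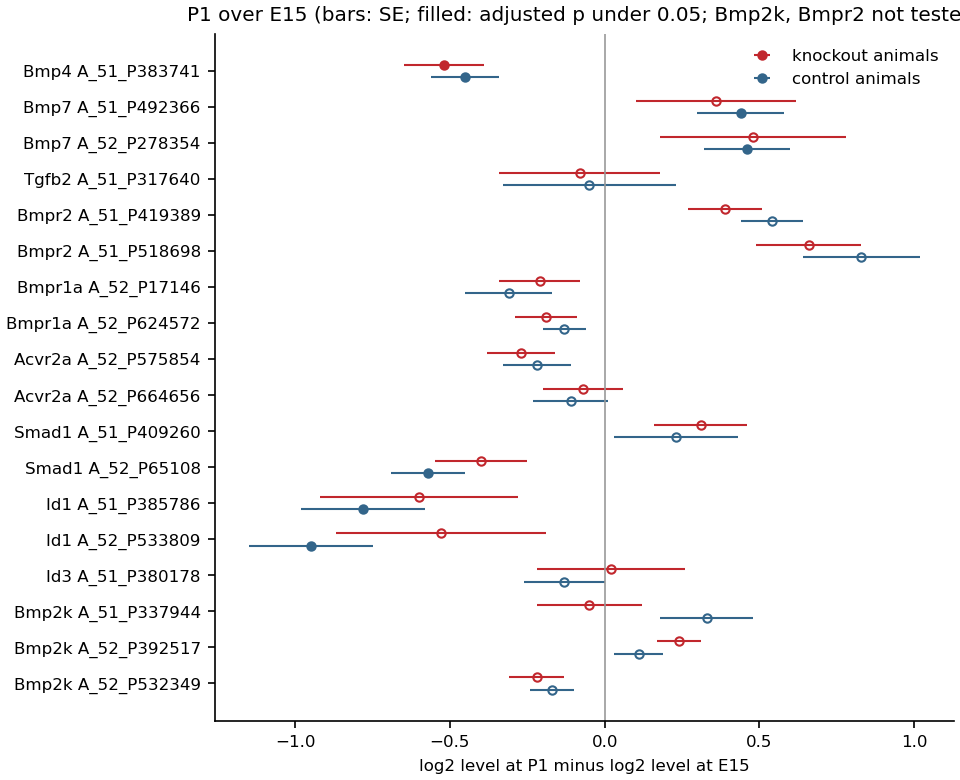
Change in log2 level, P1 minus E15, for each of the 18 probes in knockout animals (red, 4 P1 and 8 E15 animals) and control animals (blue, 4 P1 and 6 E15 animals, fewer P1 animals for Bmp7), with bars for the SE. Filled points passed an adjusted p of 0.05, and Bmp2k and Bmpr2 were not tested. Most pairs of red and blue points lie on the same side of 0 (16 of 18).

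Another 53 genes of the pathway gave a wider frame. In the knockout comparisons none of the 73 probes measured at P1 or the 72 at E15 was called. At P1 33 were above and 40 below 0 (median -0.01), and at E15 31 were above and 41 below (median -0.01). The genes with the strongest statistic in each list were, at P1, the activin subunit gene Inhbb (0.27), the activin receptor gene Acvr1b (-0.09), Smad5 (0.18), the BMP binding protein gene Bmper (-0.45, 2 replicates) and the target Id4 (0.25), with limma adjusted p of 0.445 to 0.544. At E15 they were Gdf11 (-0.13), Acvr1b (-0.05), Smad7 (0.14), the latent TGF-beta binding protein gene Ltbp1 (-0.10) and Msx1 (-0.26), with limma adjusted p of 0.759 to 0.768.

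Between the ages more pathway probes were lower than higher at P1. In knockout animals 7 of 73 probes were called higher (9.59%) and 17 lower (23.3%), with a median change of -0.13, and in controls 8 were called higher (11.0%) and 24 lower (32.9%), with a median of -0.18. The shares called lower over all probes were 15.3% and 21.7%. Among receptors, Acvr1, a BMP type I receptor gene, rose most, by 0.82 in knockout animals (limma adjusted p = 0.000534) and by 0.86 in controls (limma adjusted p = 0.00110), and the TGF-beta type I receptor gene Tgfbr1 fell most, by 0.84 in knockout animals (limma adjusted p = 0.0113) and fell by 0.74 in controls (limma adjusted p = 0.000647). Among targets Id4 fell by 1.11 in knockout animals (limma adjusted p = 0.00339) and fell by 1.20 in controls (limma adjusted p = 0.000592), at 630 to 765 units in P1 controls against 1049 to 2097 in E15 controls.

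Further names differed by genotype in which probe led. Smads and their regulators had 16 probes. Of these, 5 were called lower in knockout animals, beside 15.3% of all probes, and 6 in controls, beside 21.7%. None was called higher, beside 11.7% of all probes in knockout animals and 14% in controls. Those lower were led by Smad2 in knockout animals (-0.60, limma adjusted p = 0.00536) and Smad5 in controls (-0.61, limma adjusted p = 0.00214). Among antagonists and co-regulators, the proto-oncogene Ski rose by 1.52 in knockout animals (3 P1 animals, limma adjusted p = 0.000645) and Bmper by 1.75 in controls (2 P1 animals, limma adjusted p = 0.00330), while the BMP antagonist gene Nbl1 changed by -0.80 in knockout animals (limma adjusted p = 0.00502) and the follistatin-like gene Fstl1 by -1.38 in controls (limma adjusted p = 0.0106). Among ligands, Inhbb rose by 0.47 (limma adjusted p = 0.00781) and Bmp3 changed by -0.32 (limma adjusted p = 0.0256) in knockout animals. In controls 4 of 15 ligand probes were called lower, beside 21.7% of all probes, led by Tgfb3 (-0.65, limma adjusted p = 0.0381). Of 7 probes of 3 kinases related to Bmp2k (Aak1, Gak and Stk16), 6 were below 0 and 1 above in each genotype. The 1 above was Aak1 A_51_P284686, which rose by 0.52 in knockout animals (limma adjusted p = 0.0172) and 0.72 in controls (limma adjusted p = 0.00142). Other Aak1 probes were below 0, so Aak1 as a gene has no clear direction. In knockout animals 3 probes, of 3 genes, were called lower, and in controls 1. Gak A_51_P176185 changed by -0.57 in knockout animals (limma adjusted p = 0.00133) and by -0.57 in controls (limma adjusted p = 0.000256). No probe of these kinases was called between knockout and control. The strongest there were both of Aak1, at 0.24 at P1 (limma adjusted p = 0.414) and -0.17 at E15 (limma adjusted p = 0.773).

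The probes most like A_51_P337944 of Bmp2k over the 12 replicate ratios (8 at E15, 4 at P1), out of 25455 named probes with complete values, were of Psmd1, Oxct1, Pcdha4, Dynll2 and Irx2, with Pearson's r between 0.921 and 0.928. Their means were 0.02 to 0.21 at E15 and -0.68 to -0.18 at P1. Each mean was lower at P1 than at E15, as was that of A_51_P337944 (0.15 at P1 and 0.56 at E15). No r was taken within an age, so the part of this difference between the ages in r was not tested. The values come from the same 22 arrays, and r over 12 values chosen as the highest of many is a description only.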

How the data were processed

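Total RNA of whole brain was amplified, labelled and hybridized to dual-colour Agilent arrays, per the labels' protocols. The deposited files of Feature Extraction (8.1.1.1 at E15, 8.5.1.1 at P1), per the file headers, hold mean and background intensity per spot, with processed intensities and log10 ratios of red over green. The deposited matrix holds the same log10 ratios within 0.005, not turned for the dyes.

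From the intensities, normexp with offset 50 and loess within arrays gave log2 ratios, with control spots at weight 0 and outlier spots left out. Spots of a probe, then arrays of a replicate, were averaged. E15 replicates 3 and 4, on 1 array each, had the others' mean dye effect subtracted. Levels came from the separated channels after Aquantile, averaged per animal. Probes well above background in at least 50% of an age's channels were kept, and log2 values were tested with limma 3.58.1 in R 4.3.3 (data.table at 1.17.8, statmod 1.5.0; Python 3.11.15, matplotlib 3.10.9), with Benjamini-Hochberg adjustment over all probes kept at a threshold of 0.05. At E15 the control-sharing set was a random block (consensus correlation 0.06009). The fits were tested on simulated data.

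Of 41174 probes, 21445 were named by accession, 5432 by symbol and 4624 by synonym in the RefSeq table of GRCm38.p6, and 9673 kept the files' name. The members and lists were chosen with earlier results of these data known. All member probes are named. Of other pathway genes, the text names per list the called probe with the largest change in each direction, or, with none called, the one with the largest moderated t. Likeness names the 5 probes with the highest Pearson's r to the brightest Bmp2k probe, which was also the one with the largest E15 ratio. Alternatives were offset 0, the scanner's processed signals, outlier spots kept, no filter, a filter on every channel, the deposited matrix, blocks, quantile normalization and leaving out each animal. The number of arrays limits the precision.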

Additional observations from a re-analysis of the deposited data

Results flagged for a closer look

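Of 102 groups of 4 to 10 values looked at, 8 held a sample far from the others by Dixon's criterion, and chance flags about 1 in 20.
At E15, knockout animal 8 stood above the other 7 for Id1 (A_51_P385786), at 1219 units against 309 to 567, and its ratio of 1.85 stood above the others' -1.04 to 0.21. The same animal stood at 111 units of Bmpr2 (A_51_P419389), against 73.7 to 84.8 in the other E15 knockout animals. It was the E15 knockout animal with the highest meninges list, at 49785 units.
E15 knockout 4 was at 95.9 units of Bmp7 (A_51_P492366), against 174 to 280. E15 knockout 1 was at 69.0 units of Acvr2a (A_52_P575854), against 90.0 to 109.
At P1, knockout 1 was at 79.1 units of Bmp2k (A_51_P337944), against 118 to 127. The P1 ratio of Bmpr1a (A_52_P17146) was -0.19 in replicate 3, against 0.17 to 0.25. P1 control 2 was at 245 units of Id1 (A_51_P385786), against 332 to 333.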

How the results depend on the processing

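At E15 the count of probes called, 0 as reported, became 1 with the scanner's processed signals and 1 with the deposited matrix. In both cases it was the Bmp2k probe A_51_P337944, whose E15 values chose the gene, so these counts are no test of it. The E15 count ran from 0 to 1 when a replicate was left out (1 without replicate 1, a probe of Pla2g4b, at -0.55). At P1 the count was 0 under every alternative run. The age counts ran from 9613 to 13407 in controls and from 6358 to 10437 in knockout animals when an animal was left out, the lowest without P1 control 3 and P1 knockout 3 (6399 without P1 knockout 4). The calls of Bmp4 in both genotypes and of Id1 and Smad1 A_52_P65108 in controls held under each alternative run.
Values that changed sign had not passed or were not tested. At P1 they were Bmpr2 A_51_P419389 (0.01), Bmp7 A_51_P492366 (0.06) and A_52_P278354 (0.11) with outlier spots kept, and Id1 A_51_P385786 with offset 0 (-0.01). When single P1 replicates were left out, the range crossed 0 for Bmpr2 A_51_P518698 (-0.08 to 0.30), Bmpr1a A_52_P624572 (-0.02 to 0.05), Bmp7 A_51_P492366 (-0.24 to 0.02), Smad1 A_51_P409260 (-0.03 to 0.33), Id1 A_51_P385786 (-0.10 to 0.21) and A_52_P533809 (-0.04 to 0.29) and Id3 (-0.15 to 0.04), and reached 0 for Acvr2a A_52_P664656 (0.00 to 0.14). Between the ages it crossed 0 in knockout animals for Bmp2k A_51_P337944 (-0.12 to 0.10, not tested), Id3 (-0.08 to 0.13, and -0.06 with outlier spots kept), Tgfb2 (-0.15 to 0.08) and Acvr2a A_52_P664656 (-0.17 to 0.01), and in controls for Tgfb2 (-0.17 to 0.18). At E15, not tested, it crossed 0 for 7 of 18 probes, with values from -0.13 to 0.17, and 13 of 18 probes had opposite signs in replicates 1 to 4 and 5 to 8, which were scanned on different days. The cause was not tested.
The knockout animals of both ages share replicate numbers 1 to 4 but are different animals, and same-numbered animals deviated together with r of -0.16, 0.13, 0.09 and 0.04, so the numbers do not pair them. With the replicate block 8031 probes were called between the ages in knockout animals, Bmp7 A_52_P278354 (1.05) and Smad1 A_51_P409260 (0.51) passed, and Tgfb2 (0.06) and Acvr2a A_52_P664656 (0.03) changed sign. No paired fit was possible for controls, whose P1 labels give no number of their own.
Several dim probes moved with the background step: A_51_P419389 of Bmpr2 changed between the ages in controls by 0.54 as reported and by 1.17 with offset 0, and A_51_P337944 of Bmp2k by 0.33 and 0.89, A_52_P624572 of Bmpr1a by -0.13 and -0.60, and in knockout animals Bmp4 by -0.52 and -0.94. Signal near background limits how well the size of such changes is known.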
